A study of Mus musculus
Mus spretus with 18 samples.

Results

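Kidney and liver were compared as a pair of metabolic organs, using the 2 kidney and 2 liver libraries among the 18 samples of the series. Exons and genes that separate the organs were sought in the junction reads of skipped exon (SE) events and in the gene expression table. An SE event entered when it was autosomal, listed for both organs and covered by 20 or more junction reads in each of the 4 libraries, which left 15661 of the 100197 events listed over the 7 tissues. These events held 14251 different exons in 6275 genes. Expression was given as TPM, transcripts scaled to gene length and to a fixed library total, and genes entered with a mean of 1 TPM or more over the 4 libraries, which left 15220 of 38924.

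All 4 libraries came from female F1 hybrids of C57BL/6J mothers and SPRET/EiJ fathers at 8 weeks of age, with no treatment, and each organ was measured in whole tissue. The strain entry of the labels reads C57BL/6J x SPRET/EiJ for both kidney samples, C57BL/7J x SPRET/EiJ for liver replicate 1 and C57BL/8J x SPRET/EiJ for liver replicate 2. The study states that the liver data were taken from an earlier study on the same animals, so organ and data source cannot be told apart in any comparison here. The labels do not say which kidney and which liver came from 1 animal. An F1 hybrid carries 1 genome of each parent, and reads over a variant between them can be assigned to an allele.

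Kidney and liver share much of intermediary metabolism. Both make glucose from lactate and amino acids, both handle ammonia, and both express a set of transporters for organic anions and bile acids, but the liver alone makes most plasma proteins and bile acids, while the kidney filters blood and its tubules reabsorb and secrete. Isozymes encoded by different genes often divide a reaction between the organs. Alternative splicing, the inclusion or skipping of an exon in the mature transcript, gives a further layer on which cells of an epithelium such as the renal tubule and cells such as hepatocytes can differ, and the proteins ESRP1 and ESRP2 are known to regulate exons in epithelial cells.

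Inclusion was measured as percent spliced in (PSI), here a share from 0 to 1: the inclusion junction reads per base of the inclusion form, over the sum of that value and the skipping reads per base of the skipping form. Tested events had a median of 834 and 847 junction reads in kidney and 452 and 423 in liver. PSI correlated between replicates at 0.995 in kidney and 0.987 in liver across the 15661 events, which are not independent of each other. Among 1322 events of intermediate inclusion and 100 or more reads, the replicates differed by a median PSI of 0.0231 in kidney and 0.0358 in liver. TPM values carry no read depth, so no counting interval was given for them.

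The organ labels held in all 4 libraries, but 1 library stood apart. The lists of proximal tubule genes summed to 58632 and 64358 TPM in kidney and 66.6 and 70.8 TPM in liver, and the hepatocyte secreted proteins to 451 and 645 TPM in kidney and 191541 and 209639 TPM in liver. Kidney replicate 2 also held transcripts of the adrenal cortex, the steroid-making gland that lies on the kidney. Cyp21a1, a steroid hydroxylase, was at 0.0227 TPM in kidney replicate 1 and 694 TPM in replicate 2, and Star, which carries cholesterol into mitochondria, was at 1.77 and 561 TPM. Cyp11a1 was at 0.096 and 450.3 TPM and Cyp11b1 at 0.0102 and 423 TPM. The 5 adrenal markers summed to 1.9 TPM in kidney replicate 1, 2143 TPM in kidney replicate 2 and 1.06 and 0.734 TPM in liver. Some counts below are therefore also given without kidney replicate 2, where the 1 kidney library left is assumed to vary as the liver libraries do. The remaining counts rest on all 4 libraries.

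Across all 15661 events, 96 were called higher in kidney and 193 higher in liver, which is 0.613% and 1.23% of the events tested. A call needed an adjusted p under 0.05 in a quasi-binomial model of inclusion against skipping reads, with dispersions moderated by limma and Benjamini-Hochberg adjustment over all events, and a difference in mean PSI (dPSI, kidney minus liver) of 0.1 or more in size. The 289 called events held 278 exons in 238 genes, with 94 exons in the events higher in kidney and 186 in those higher in liver. An exon of Cd36 and 1 of Crat, named here for this after their values were seen, were the 2 exons called in both directions, each in separate events. Most exons did not separate the organs: 12252 events had a PSI above 0.9 in all 4 libraries or below 0.1 in all 4, and none of them was called because such a difference cannot reach the size limit. At the other end, 16 events differed by a PSI of 0.5 or more, 6 higher in kidney and 10 higher in liver, and all 16 were called.

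Without kidney replicate 2, 86 events were called higher in kidney and 181 in liver, and 81 and 157 of these were among the calls from 4 libraries. The number of calls depended on the test. With limma on logit PSI, which takes no account of read depth, 2 events were called in each direction, and the named exons of Postn, Iigp1 and Dab2 were among them. The organs share animals, and with the replicate number as a block in the quasi-binomial model with limma 0 events were called in either direction (smallest adjusted p = 0.280), while 147 and 283 events had an unadjusted p under 0.05 and met the size limit. Events of 1 exon share reads, and an exon listed as alternative in 1 organ alone was not tested.

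**Figure D1:**
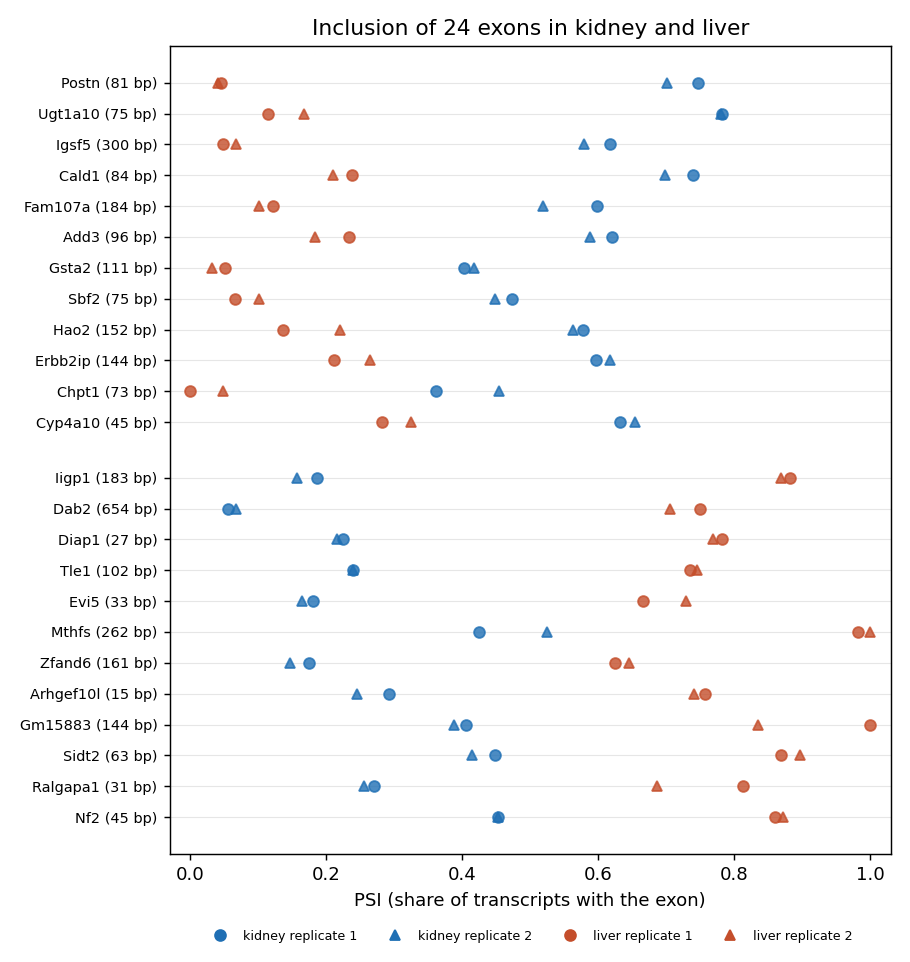
PSI (share of transcripts with the exon, x axis) of 24 named exons, 12 higher in kidney above and 12 higher in liver below, in each of the 4 libraries. Blue marks kidney and orange liver, circles replicate 1 and triangles replicate 2, and the marks of the 2 organs do not overlap for any of these exons, which were chosen for their gap.

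The exons named here are those with the widest gap between the organs among called events with 50 or more reads in each library, 12 in each direction and 1 per gene. Their gap was used to choose them, so it is a description. Coordinates are those of the mouse build mm10, and each is an internal exon of the gene named; whether it lies in coding sequence or a UTR was not analysed here. Adjusted p for the 24 ranged from 7.16e-14 to 0.0047 (quasi-binomial test with limma). The exon with the widest gap toward kidney was an 81-bp exon of Postn, periostin, a secreted matrix protein, at chr3:54380412-54380492 on the + strand. Its PSI was 0.747 and 0.701 in kidney and 0.0448 and 0.0402 in liver (adjusted p = 5.81e-10, quasi-binomial test with limma). Kidney transcripts thus mostly held the exon and liver transcripts mostly lacked it. Postn itself was at 26.6 and 29.3 TPM in kidney against 4.49 and 4.26 TPM in liver.

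Igsf5, a junctional adhesion protein of the immunoglobulin superfamily, had a 300-bp exon (chr16:96378085-96378384) with a PSI of 0.617 and 0.579 in kidney and 0.0478 and 0.0667 in liver. An 84-bp exon of Cald1, the actin-binding protein caldesmon (chr6:34747886-34747969), had a PSI of 0.739 and 0.699 in kidney and 0.237 and 0.21 in liver. In Add3 the kidney values again lay above the middle of the scale and the liver values well below it. Its product, adducin gamma, links spectrin to actin, and its 96-bp exon (chr19:53244310-53244405) had a PSI of 0.62 and 0.588 in kidney and 0.233 and 0.182 in liver. Fam107a, an actin-associated stress gene, included a 184-bp exon (chr14:8301353-8301536) at 0.599 and 0.519 in kidney and 0.121 and 0.101 in liver. Erbb2ip, the basolateral scaffold protein erbin, had a 144-bp exon (chr13:103830188-103830331) at 0.597 and 0.617 in kidney and 0.21 and 0.264 in liver. Sbf2, a myotubularin-related pseudophosphatase, had a 75-bp exon (chr7:110341290-110341364) at 0.473 and 0.448 in kidney and 0.0652 and 0.101 in liver. In all of these the 2 kidney values lay above the 2 liver values by more than either organ's replicates differed, which follows from their choice by gap.

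The other named exons higher in kidney lay in Hao2, Chpt1, Ugt1a10, Gsta2 and Cyp4a10. Hao2, a peroxisomal hydroxyacid oxidase, had a 152-bp exon (chr3:98883574-98883725) with a PSI of 0.578 and 0.563 in kidney and 0.135 and 0.22 in liver, although its liver values rest on as few as 75 reads. Chpt1, choline phosphotransferase, had a 73-bp exon (chr10:88471388-88471460) at 0.361 and 0.455 in kidney and 0 and 0.0485 in liver. Ugt1a10 (75 bp, chr1:88056262-88056336) was at 0.783 and 0.781 in kidney and 0.114 and 0.166 in liver. Gsta2 (111 bp, chr9:78342487-78342597) was at 0.402 and 0.417 in kidney and 0.0514 and 0.0316 in liver, so even kidney skipped the exon in most transcripts. Cyp4a10 (45 bp, chr4:115520252-115520296) was at 0.632 and 0.654 in kidney and 0.282 and 0.324 in liver. Ugt1a10, Gsta2 and Cyp4a10 belong to families of near-identical genes, for UDP-glucuronosyltransferases, glutathione transferases and fatty acid hydroxylases, so reads of a relative may enter their values. The Cyp4a10 call was lost without kidney replicate 2 (adjusted p = 0.0789, quasi-binomial test with limma).

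Toward liver, the exon at issue in Dab2 was the longest of the 24, with 654 bp at chr15:6429296-6429949 on the + strand. Dab2 is an endocytic adaptor that works with megalin in the proximal tubule, and a short form of the protein that lacks a large central exon is known. Its PSI was 0.0553 and 0.0674 in kidney and 0.75 and 0.705 in liver (adjusted p = 2.66e-07, quasi-binomial test with limma). Kidney thus carried almost wholly the short form, while Dab2 was expressed at 186 and 218 TPM in kidney against 4.2 and 4.3 TPM in liver. Megalin, encoded by Lrp2, was at 490.3 and 523 TPM in kidney against 0.0557 and 0.0324 TPM in liver.

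Some of the exons higher in liver were short. The formin gene Diap1, listed under this name in the files, had a 27-bp exon with a PSI of 0.224 and 0.216 in kidney and 0.782 and 0.768 in liver. A 15-bp exon of Arhgef10l, a guanine nucleotide exchange factor (chr4:140568756-140568770), was at 0.292 and 0.245 in kidney and 0.757 and 0.741 in liver, and a 33-bp exon of Evi5 (chr5:107810290-107810322), a Rab GTPase-activating protein, at 0.18 and 0.165 in kidney and 0.666 and 0.729 in liver. Nf2, which encodes merlin, a membrane-cytoskeleton linker upstream of Hippo signalling, had a 45-bp exon (chr11:4780578-4780622) at 0.453 and 0.452 in kidney and 0.86 and 0.871 in liver. Kidney replicates of the Nf2 exon were nearly identical and lay at about the middle of the scale, so kidney held both forms and liver chiefly the longer one. A 31-bp exon of Ralgapa1 (chr12:55612073-55612103), which encodes a subunit of a Ral GTPase-activating complex, was at 0.271 and 0.256 in kidney and 0.813 and 0.686 in liver.

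Among longer exons, Tle1, a Groucho-type corepressor, had a 102-bp exon (chr4:72138962-72139063) with a PSI of 0.239 and 0.239 in kidney and 0.735 and 0.745 in liver, and Sidt2, a lysosomal membrane protein, a 63-bp exon (chr9:45946506-45946568) at 0.448 and 0.414 in kidney and 0.869 and 0.896 in liver. The Sidt2 exon was covered by 1186 or more reads in each library, and in both genes the replicates of an organ lay close together. Zfand6 (161 bp, chr7:84652882-84653042) was at 0.175 and 0.146 in kidney and 0.625 and 0.646 in liver. Mthfs (262 bp, chr9:89215209-89215470), a folate enzyme, was at 0.424 and 0.525 in kidney and 0.982 and 1.0 in liver. Liver transcripts of Mthfs thus nearly all held the exon, on 62 or more reads in each library. Iigp1, an interferon-inducible GTPase of a multigene family, had a 183-bp exon at 0.186 and 0.157 in kidney and 0.882 and 0.869 in liver, and the predicted gene Gm15883 a 144-bp exon (chr7:27129754-27129897) at 0.405 and 0.388 in kidney and 1.0 and 0.835 in liver; reads of relatives or overlapping genes may enter both.

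**Figure D2:**
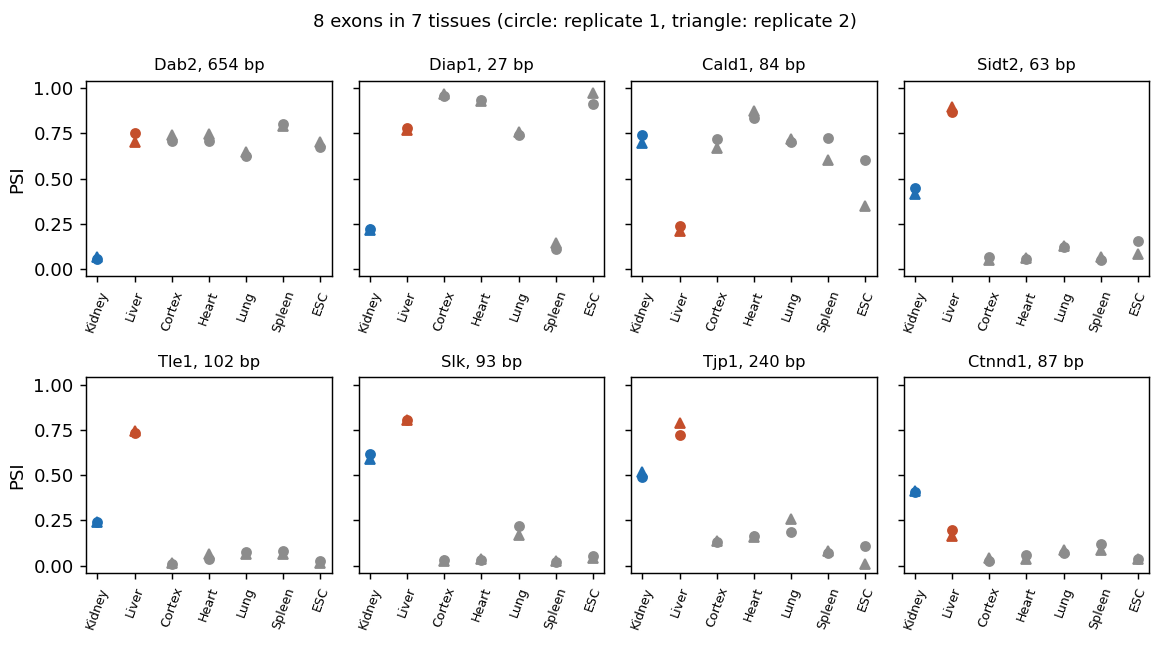
PSI (y axis) of 8 exons called between kidney and liver, in both replicates of 7 tissues: kidney in blue, liver in orange, and cortex, heart, lung, spleen and embryonic stem cells (ESC) in grey. Kidney stands below all other tissues for Dab2, liver stands below all others for Cald1, and for Sidt2, Tle1, Slk, Tjp1 and Ctnnd1 both organs lie above the other tissues.

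The called exons were also set beside the other 5 tissues, to describe which organ lay further from them. Of the 254 called events with enough reads in 3 or more of the other tissues, the median of those tissues lay nearer to kidney for 169 (66.5%) and nearer to liver for 85. Kidney lay outside the range of the other tissues for 75 events and liver for 132. These counts cover called events only, with no share over all tested events beside them. Replicates also differed more in liver (median PSI difference 0.0358) than in kidney (0.0231). In Dab2 it was kidney that departed, since the 654-bp exon had a PSI of 0.626 to 0.801 in the other 10 libraries against 0.0553 and 0.0674 in kidney. In Cald1 it was liver, as the other libraries ranged from 0.35 to 0.874 and liver was at 0.237 and 0.21. For the 27-bp Diap1 exon, spleen (0.112 and 0.144) was the tissue below kidney, and cortex, heart, lung and ESC were at 0.739 to 0.973.

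A further pattern was an exon that both organs included more than every other tissue, with liver higher still. The Sidt2 exon had a PSI of 0.0493 to 0.153 in the other tissues, below 0.448 and 0.414 in kidney and 0.869 and 0.896 in liver. The Tle1 exon was at 0.0108 to 0.0781 in the other tissues, below its values in kidney (0.239 and 0.239) and liver (0.735 and 0.745). The 93-bp Slk exon was at 0.0189 to 0.221 in the other tissues, against 0.616 and 0.591 in kidney and 0.806 and 0.805 in liver. In contrast, the 184-bp exon of Fam107a was high in kidney alone, since liver and the other tissues with enough reads had a PSI of 0.0294 to 0.239.

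Genes known to hold exons that differ between epithelial and other cells gave 7 called events among 66 tested in 18 genes, or 10.6% of events, 1 higher in kidney and 6 higher in liver, beside 0.613% and 1.23% of all events. The 87-bp exon of Ctnnd1, the adherens junction protein p120-catenin (chr2:84603188-84603274), was higher in kidney, with a PSI of 0.408 and 0.413 in kidney and 0.198 and 0.162 in liver. Higher in liver, besides Nf2, were the 240-bp exon of Tjp1, the tight junction protein ZO-1 (chr7:65314093-65314332), at 0.489 and 0.515 in kidney and 0.721 and 0.786 in liver, and the 93-bp exon of the kinase gene Slk (chr19:47627648-47627740). Also higher in liver were exons of the casein kinase gene Csnk1d (63 bp, chr11:120964948-120965010) at 0.593 and 0.573 in kidney and 0.801 and 0.753 in liver, of the laminin receptor subunit Itga6 (130 bp, chr2:71853534-71853663) at 0.119 and 0.137 in kidney and 0.315 and 0.424 in liver and of the Hippo effector Yap1 (48 bp, chr9:7950492-7950539) at 0.557 and 0.498 in kidney and 0.631 and 0.668 in liver. The Itga6 values in liver rest on as few as 42 reads, and its call was lost without either liver library. The Yap1 call was lost without kidney replicate 2 (adjusted p = 0.362) and without liver replicate 2 (adjusted p = 0.167, both quasi-binomial tests with limma).

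Splicing regulators themselves gave 6 called events among 104, or 5.77%, in 5 of 34 genes, 4 higher in kidney and 2 higher in liver, against 0.613% and 1.23% of all events, and 5 of the 6 calls were lost without at least 1 of the 4 libraries. In Mbnl1, which encodes a regulator of developmental splicing, a 36-bp exon (chr3:60621423-60621458) was at 0.47 and 0.524 in kidney and 0.173 and 0.11 in liver and a 95-bp exon (chr3:60622146-60622240) at 0.746 and 0.762 in kidney and 0.543 and 0.62 in liver. A1cf, the cofactor of apolipoprotein B mRNA editing, had a 144-bp exon (chr19:31893055-31893198) at 0.899 and 0.897 in kidney and 0.709 and 0.799 in liver, and Hnrnph1 a 139-bp exon (chr11:50381459-50381597) at 0.874 and 0.882 in kidney and 0.707 and 0.818 in liver. Higher in liver were a 497-bp exon of Hnrnpl (chr7:28810672-28811168), at 0.353 and 0.423 in kidney and 0.633 and 0.546 in liver, and a 104-bp exon of Rbpms (chr8:33789392-33789495), at 0.39 and 0.443 in kidney and 0.561 and 0.558 in liver. The call kept without any 1 library was that of the 36-bp exon of Mbnl1. With 20 or more reads per allele and library, both alleles of the Rbpms exon differed in the direction of all reads. For the A1cf exon both alleles lay at 0.99 to 1.0 in every library of both organs, on 161 to 402 such reads each, and so did not show the difference of all reads.

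Over the 8 lists of metabolic enzymes and transporters, 4 of 314 events in 84 genes were called, 2 higher in kidney and 2 higher in liver, near the 0.613% and 1.23% of all events. They lay in the lists of fatty acid oxidation (2 of 70), gluconeogenesis (1 of 24) and glycolysis (1 of 18). The called exons in enzyme genes besides Cyp4a10 included those in Aldoa (153 bp, chr7:126797974-126798126) at 0.399 and 0.51 in kidney and 0.274 and 0.18 in liver, lost without liver replicate 2, and in Fbp1 (138 bp, chr13:62868982-62869119) at 0.58 and 0.52 in kidney and 0.85 and 0.862 in liver. Aldoa is the aldolase of muscle and most other cells and Fbp1 the gluconeogenic fructose-bisphosphatase. The Fbp1 event had only 74 to 95 reads in a gene of 1129.8 and 1143 TPM in kidney and lost its call without any of the libraries in turn. The nuclear receptor gene Nr1i3, which encodes the xenobiotic sensor CAR, had a 131-bp exon (chr1:171214944-171215074) at 0.565 and 0.448 in kidney and 0.789 and 0.779 in liver, a call that was lost without either kidney library.

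Exons of 60 bp or less were called at a higher rate than those above 60 and below 300 bp. Of exons of 30 bp or less, often named micro-exons, 14 of 334 events (4.19%) were called, and of those of 31 to 60 bp 64 of 1751 (3.66%), against 196 of 13038 (1.5%) for those above 60 and below 300 bp and 15 of 538 (2.79%) for 300 bp or more. Of the 64 called events of 31 to 60 bp, 50 were higher in liver, beside 193 of the 289 called events of any length. Exons whose length is a multiple of 3, which keep the reading frame, made up 42.5% of the events tested and 62.6% of those called, and 2.72% of them were called against 1.20% of the rest. Among events with a PSI between 0.1 and 0.9 in an organ, 12.7% of the frame-keeping and 7.66% of the other events were called. By length, 12.6% of those of 30 bp or less, 15% of those of 31 to 60 bp, 9.02% of those above 60 and below 300 bp and 12.5% of those of 300 bp or more were called there, so the longest exons were called about as often as the shortest. These shares are descriptions over events, with no test.

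Called micro-exons, which were named after their values were seen, went both ways. A 12-bp exon of Dnm2, dynamin 2, which cuts endocytic vesicles from the membrane (chr9:21490658-21490669), was at 0.877 and 0.847 in kidney and 0.59 and 0.595 in liver, and a 24-bp exon of the clathrin assembly gene Picalm (chr7:90194273-90194296) at 0.952 and 0.942 in kidney and 0.794 and 0.763 in liver. Higher in liver were a 24-bp exon of the kinase gene Mink1 (chr11:70609408-70609431) at 0.319 and 0.359 in kidney and 0.635 and 0.648 in liver and a 30-bp exon of Lmo7 (chr14:101888677-101888706), an adherens junction protein, at 0.105 and 0.114 in kidney and 0.449 and 0.438 in liver. Each of these kept its 2 organs apart by more than the replicates differed, which is a description, given how they were chosen.

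Reads that could be assigned to an allele covered 13 of the 24 named exons with 20 or more reads per allele and library. For 12 of these 13 both alleles differed between the organs in the direction of all reads, which include the allelic reads and so are not independent of them. This count takes the sign of the difference alone, whatever its size. For Gsta2, among the 12, the SPRET/EiJ allele hardly differed, at 0.0189 and 0.00833 in kidney against 0 and 0.00725 in liver. For the Nf2 exon the C57BL/6J allele had a PSI of 0.356 and 0.409 in kidney and 0.834 and 0.951 in liver, and the SPRET/EiJ allele 0.387 and 0.377 in kidney and 0.874 and 0.928 in liver. The 2 alleles of Nf2 thus lay together within each organ. For the Arhgef10l exon they lay apart, at 0.177 and 0.131 in kidney and 0.581 and 0.488 in liver for C57BL/6J and at 0.411 and 0.338 in kidney and 0.892 and 0.933 in liver for SPRET/EiJ, with liver higher on both. The Postn exon in kidney was at 0.263 and 0.194 for C57BL/6J and 0.738 and 0.647 for SPRET/EiJ, and in liver both alleles were at 0.0476 or less. Both kidney alleles lay at or below the PSI of all reads there: an allelic PSI rests on reads over variants alone and need not average to that of all reads. The exception in direction was Ugt1a10, with 0.0869 and 0.0644 in kidney and 0.0967 and 0.127 in liver for C57BL/6J but 0.917 and 0.902 in kidney and 0.323 and 0.522 in liver for SPRET/EiJ.

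Many genes were called for expression between the organs, and their counts depended on scaling. The test and the size limit differ from those of the exons, so the 2 kinds of count cannot be ranked. On TPM as deposited, 8848 genes (58.1% of 15220) were called higher in kidney and 1143 (7.51%) higher in liver, by limma on log2(TPM + 0.1) with an adjusted p under 0.05 and a log2 fold of 1 or more in size. The median log2 fold of all genes was 1.20 toward kidney. In liver few genes take a large share of TPM: the top 100 genes held 53.6% and 56.6% in liver against 38.8% and 38% in kidney, and Alb alone 8.41% and 10.3%. When each library was centred on its median gene, which lowers every log2 fold by 1.29, 3399 genes (22.3%) were called higher in kidney and 2839 (18.7%) higher in liver. A call under both scalings needs a larger deposited log2 fold toward kidney than toward liver, because centring lowers every fold. Calls below are those made under both scalings, 3399 higher in kidney and 1143 higher in liver, and log2 folds are on the deposited scale. Without kidney replicate 2 these counts were 3384 and 1145, of which 3314 and 1086 were shared.

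In whole tissue, fewer cells of a type and less RNA per cell cannot be told apart. Liver replicate 2 held 23629.9 TPM of Gm23935 and 18431 TPM of Gm26924, a pair of predicted non-coding genes, against 2586 and 2535 TPM in liver replicate 1. Without that library the gene calls on the deposited scale were 8556 and 1138, and the called events 117 and 205.

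**Figure D3:**
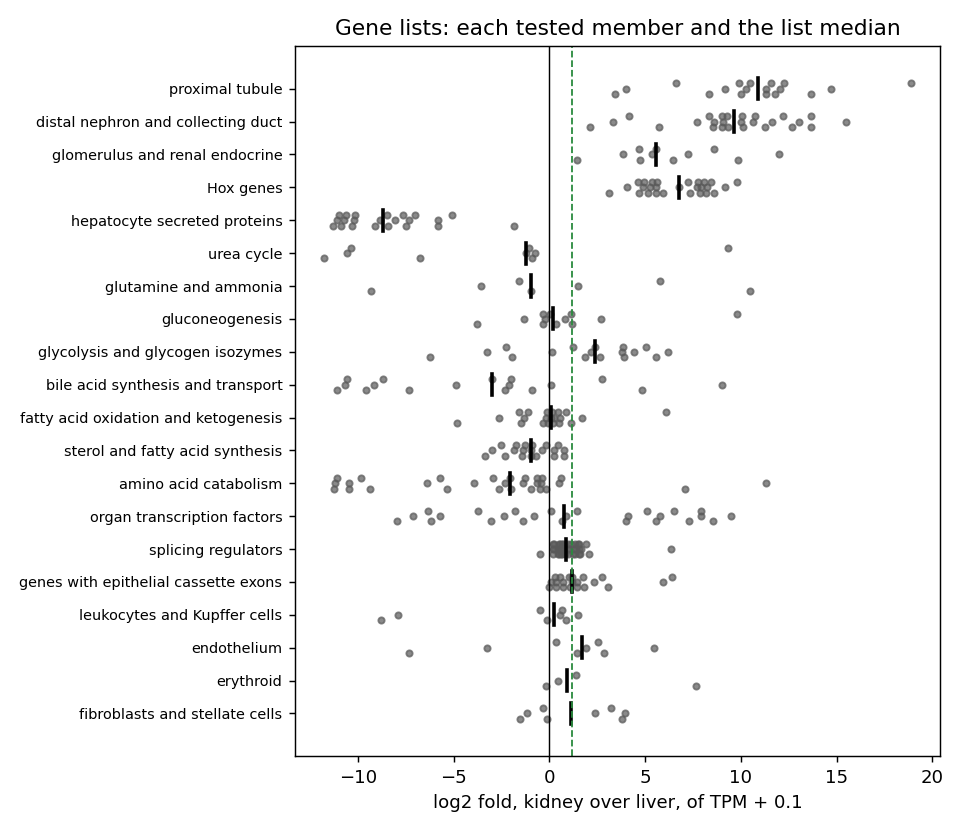
Log2 fold of TPM + 0.1, kidney over liver (x axis), of each tested member of 19 gene lists and of the Hox genes (points), with the list median as a thick bar. The solid line marks 0 and the dashed green line the median of all genes, 1.20; nephron and Hox genes lie far to the right of both and hepatocyte secreted proteins far to the left, while enzyme lists spread over both sides.

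Genes of the nephron were high in kidney. The lists of organ and metabolic genes named below had all their members in the table and past the filter on low values, except where a smaller number tested is given. The organ marker lists serve as a check of the labels, since they hold genes picked as markers. All 18 proximal tubule genes were called higher in kidney, against 22.3% of all genes, with a median log2 fold of 10.88. Members listed at or near 0 TPM in liver, such as Kap, Slc34a1 and Slc5a2, passed the filter through their kidney values alone. Such genes had to differ, and for them the number called is a description of that choice. Kap, an androgen-regulated kidney protein, was at 46098 and 51208 TPM in kidney and listed at 0 in both livers. Slc34a1, the phosphate transporter of the brush border, was at 2864 and 2922 TPM in kidney against 0.0164 and 0 TPM in liver, and Slc5a2, the glucose transporter SGLT2, at 467 and 459 TPM in kidney against 0.0105 and 0.00795 TPM in liver. Proximal tubule genes shared with liver were rarer and included Slc13a3, a dicarboxylate transporter, at 319 and 357 TPM in kidney against 20 and 21.9 TPM in liver (log2 fold 4.00, SE 0.09), and Slc4a4, the basolateral bicarbonate transporter, at 234 and 215 TPM in kidney against 20.5 and 21.3 TPM in liver (log2 fold 3.42, SE 0.07).

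Of 26 distal nephron and collecting duct genes, 25 were called higher in kidney, against 22.3% of all genes, with a median of 9.66. Members at or near 0 TPM in liver, such as Umod, Slc12a1 and Aqp2, again passed the filter through kidney alone and had to differ. Umod, uromodulin of the thick ascending limb, was at 6113 and 5972 TPM in kidney against 0.0655 and 0 TPM in liver. Slc12a1, the target of loop diuretics, was at 957 and 734 TPM and the water channel gene Aqp2 at 513 and 421 TPM in kidney, and both were listed at 0 in liver. Atp6v0d2, a proton pump subunit, was the member not called under both scalings, at 36 and 35.1 TPM in kidney against 10.5 and 6.12 TPM in liver. Among 11 genes of the glomerulus and of renal hormones, 10 were called higher in kidney, beside that same share of all genes. Here too, members such as Nphs1 and Kl passed the filter through kidney alone. The podocyte gene Nphs1 (39.9 and 36.7 TPM) was listed at 0 in liver, and Kl, the FGF23 coreceptor klotho, was at 578 and 610.1 TPM in kidney against 0.0712 and 0.0225 TPM in liver. Ren1, renin, was at 181 and 196 TPM in kidney against 18.8 and 8.95 TPM in liver. Epo, erythropoietin, was at 3.83 and 4.12 TPM in kidney against 1.29 and 1.5 TPM in liver, a log2 fold of 1.45 that was close to the median of all genes and not called after centring (adjusted p = 0.338, limma).

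All 22 hepatocyte secreted proteins were called higher in liver, against 7.51% of all genes, with a median log2 fold of -8.67. Members with very low kidney values, such as F9, passed the filter through liver alone and so had to differ. Albumin, Alb, was at 33.9 and 61 TPM in kidney against 84064 and 103050.0 TPM in liver (log2 fold -11.00, SE 0.34, adjusted p = 1.87e-05, limma). Apoa1, the main protein of high-density lipoprotein, was at 3.89 and 7.2 TPM in kidney against 10287 and 10543 TPM in liver, and clotting factor F9 at 0.0935 and 0.121 TPM in kidney against 263 and 256 TPM in liver. The central complement gene C3 was at 39.8 and 165 TPM in kidney against 4123 and 5152 TPM in liver, with the higher kidney value in the library that held adrenal transcripts.

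Taken by size alone, the 6 largest folds toward kidney were Kap, Umod, Slc34a1, Klk1 (tissue kallikrein, 3586 and 3734 TPM in kidney), Napsa (napsin A, an aspartic protease, 7821 and 7160.3 TPM) and Fxyd2 (a sodium pump subunit, 3612 and 3243 TPM), all at 0.427 TPM or less in liver. Toward liver they were Sult3a1, Gm4794, Cps1, Mup13, Cyp2c37 and Cyp3a11, all at 2.16 TPM or less in kidney. Cps1 catalyses the entry step of the urea cycle, and the others apart from Gm4794 encode a sulfotransferase, a major urinary protein and a pair of cytochrome P450 enzymes, families whose members can share reads. Sult3a1 was at 4806 and 4345 TPM in liver and Cyp3a11 at 4819 and 5072 TPM.

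Among genes of 10 TPM or more in all 4 libraries, the largest folds toward kidney included Ndrg1 (1422 and 1403 TPM in kidney against 11.9 and 13.9 TPM in liver), Slc3a1, a cystine transporter subunit (1599 and 1613 TPM in kidney against 17 and 15.6 TPM in liver), Spp1, osteopontin (3276 and 3256 TPM in kidney against 61.2 and 51.2 TPM in liver), and Car2, carbonic anhydrase 2 (617 and 575 TPM in kidney against 13.4 and 14.1 TPM in liver). Ly6a, Akr1c21, Galnt11 and Oxct1 completed the 8 named by that rule. Toward liver the 8 were all plasma protein genes apart from the predicted gene Gm20425, namely Alb, Apoa2, Trf, Rbp4, Fgg, Fgb and Ttr. Ttr, transthyretin, was at 53.2 and 67.8 TPM in kidney against 9823 and 9763 TPM in liver, and Rbp4, the retinol carrier, at 10.5 and 12.3 TPM in kidney against 4541 and 3443 TPM in liver.

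**Figure D4:**
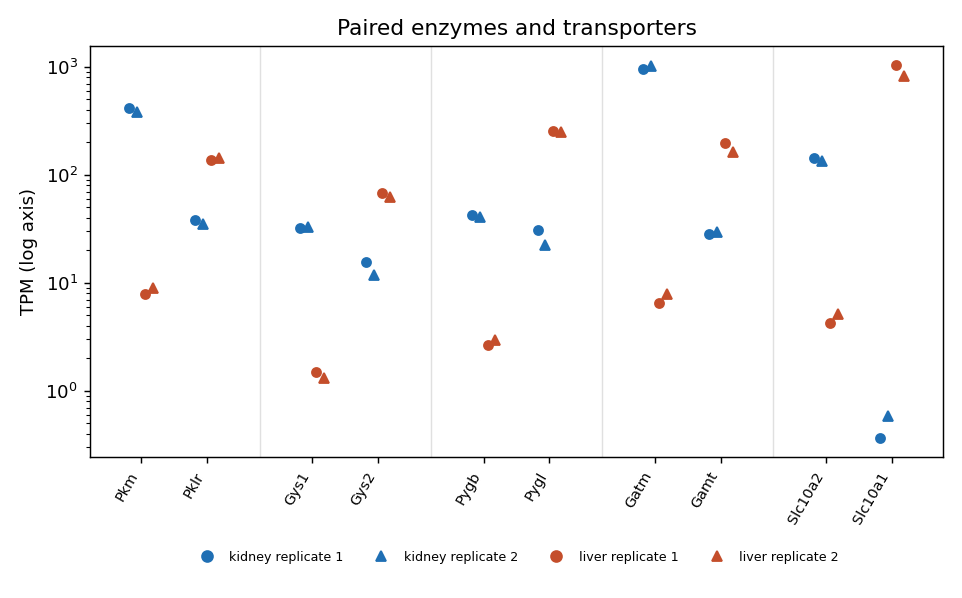
TPM (log axis) of 5 pairs of enzymes or transporters, the left gene of each pair higher in kidney and the right gene higher in liver. Blue is kidney, orange is liver, circles are replicate 1 and triangles replicate 2. The organs do not overlap for any of the 10 genes, but the pairs were picked for their opposite directions, so this is a description.

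Of 9 urea cycle genes, 6 were called higher in liver and 1 higher in kidney (5 and 1 without kidney replicate 2), against 7.51% and 22.3% of all genes. Otc, which makes citrulline in mitochondria, was at 0.0689 and 0.0633 TPM in kidney against 245 and 202 TPM in liver. Ass1 and Asl, which form arginine from citrulline, were abundant in both organs, with Ass1 at 1362 and 1576 TPM in kidney against 2722 and 2255 TPM in liver and Asl at 80.4 and 81.8 TPM in kidney against 165 and 140.2 TPM in liver. Neither was called on the deposited scale. After centring both were called higher in liver, with a log2 fold of -2.05 for Ass1 and -2.20 for Asl. With quantile normalization Asl was called higher in liver (log2 fold -1.39), while Ass1 changed direction (log2 fold 0.16 in place of -0.76).

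Of 7 genes of glutamine and ammonia handling, 2 were called higher in kidney and 3 higher in liver, against 22.3% and 7.51% of all genes. After centring alone, 2 and 4 were called. Gls2, the liver glutaminase, was at 0.27 and 0.415 TPM in kidney against 306 and 263 TPM in liver (log2 fold -9.35, SE 0.19). Rhcg, an ammonia channel of the collecting duct, was at 143 and 147 TPM in kidney and listed at 0 in liver. Glul, glutamine synthetase, was at 354 and 395 TPM in kidney against 1174 and 1119 TPM in liver and the glutamine transporter gene Slc38a3 at 73 and 66.7 TPM in kidney against 866 and 823 TPM in liver, both higher in liver.

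Creatine synthesis was divided by step. Gatm, which makes guanidinoacetate, was at 966 and 1015 TPM in kidney against 6.52 and 7.96 TPM in liver, and Gamt, which methylates it to creatine, at 28.3 and 29.4 TPM in kidney against 197 and 162 TPM in liver, so each organ was high in a different step of the route. Oxct1, needed to use ketone bodies as fuel, was at 1166 and 1184 TPM in kidney against 16.4 and 18.4 TPM in liver (log2 fold 6.07, SE 0.09).

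Of 12 gluconeogenesis genes, 2 were called higher in kidney and 2 higher in liver, against 22.3% and 7.51% of all genes. The counts moved with scaling, at 4 and 2 on TPM as deposited and 2 and 6 after centring, with a median log2 fold of 0.19, below the 1.20 of all genes. Pck1, the cytosolic phosphoenolpyruvate carboxykinase, was at 476 and 732 TPM in kidney against 754 and 743 TPM in liver, Fbp1 at 1129.8 and 1143 TPM in kidney against 884 and 881 TPM in liver, and G6pc, glucose-6-phosphatase, at 429 and 396 TPM in kidney against 599 and 459.5 TPM in liver. Pyruvate carboxylase, Pcx, was at 259.6 and 273 TPM in kidney against 241 and 289.8 TPM in liver. The kidney and liver values of Pcx overlapped. Those of Fbp1, G6pc and Pck1 did not, although for Pck1 the higher kidney value lay close to both liver values. Larger folds were seen for Ldhb and Gpt. Ldhb, the lactate dehydrogenase subunit suited to lactate use, was at 1637 and 1519 TPM in kidney against 1.74 and 1.56 TPM in liver and Gpt, the alanine transaminase, at 20 and 15.7 TPM in kidney against 260.3 and 223 TPM in liver. Pck2, the mitochondrial carboxykinase, was higher in kidney (12.3 and 13.3 TPM in kidney against 1.89 and 1.94 TPM in liver) and the glucose transporter gene Slc2a2 higher in liver (69.9 and 68.1 TPM in kidney against 193 and 162 TPM in liver).

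Of 17 glycolysis and glycogen genes, 9 were called higher in kidney (8 without kidney replicate 2) and 4 higher in liver, against 22.3% and 7.51% of all genes. Hk1, a hexokinase of high glucose affinity, was at 68.5 and 60.3 TPM in kidney against 0.695 and 0.891 TPM in liver. Pkm was at 419 and 381 TPM in kidney against 7.94 and 9.04 TPM in liver and the liver pyruvate kinase gene Pklr at 38.1 and 35.1 TPM in kidney against 136 and 144 TPM in liver, so kidney expressed both. Gys1 was at 32.5 and 32.6 TPM in kidney against 1.51 and 1.32 TPM in liver and the liver glycogen synthase gene Gys2 at 15.7 and 11.9 TPM in kidney against 67.5 and 63 TPM in liver. The phosphorylase genes Pygb and Pygl were at 42.1 and 40.4 TPM in kidney against 2.64 and 2.98 TPM in liver and at 30.6 and 22.4 TPM in kidney against 256 and 248 TPM in liver respectively. For each of these genes the organs did not overlap, which is a description of picked genes with no share over all genes beside it.

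Of 17 bile acid genes, 11 were called higher in liver and 3 higher in kidney (13 and 3 without kidney replicate 2), against 7.51% and 22.3% of all genes. Cyp7a1, the rate-limiting enzyme of bile acid synthesis, was at 0.0583 and 0.0263 TPM in kidney against 163 and 71.3 TPM in liver, and the canalicular export pump gene Abcb11 at 0.104 and 0.237 TPM in kidney against 403 and 405 TPM in liver. The 3 genes higher in kidney were those of bile acid reuptake across epithelia. Slc10a2, the apical sodium-dependent transporter, was at 142 and 134 TPM in kidney against 4.22 and 5.18 TPM in liver, and its liver counterpart Slc10a1 at 0.364 and 0.591 TPM in kidney against 1049.9 and 829 TPM in liver. Slc51a and Slc51b, which encode the 2 subunits of the basolateral exporter, were at 64.4 and 51.2 TPM in kidney against 0.0253 and 0 TPM in liver and at 65 and 68.8 TPM in kidney against 10.4 and 9.21 TPM in liver. Akr1d1, a steroid reductase of bile acid synthesis, was at 27.9 and 216 TPM in kidney against 429.6 and 358 TPM in liver. It was not called on the deposited scale (adjusted p = 0.0781, limma). It was called higher in liver after centring (log2 fold -3.62, adjusted p = 0.0246, limma). It was also called with the replicate block (adjusted p = 0.0415, limma) and with the spread taken from 6 organs (adjusted p = 0.0111, limma). Without kidney replicate 2 its log2 fold was -3.81 (adjusted p = 0.00261, limma).

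Amino acid breakdown genes were mostly higher in liver, with 18 of 29 genes called higher in liver and 2, Gatm and Dao, higher in kidney, against 7.51% and 22.3% of all genes. Tat, which degrades tyrosine, was at 0.40 and 0.797 TPM in kidney against 1798 and 1349 TPM in liver, Tdo2, which opens the tryptophan ring, at 0.17 and 0.413 TPM in kidney against 852 and 809.8 TPM in liver, and Mat1a, the liver methionine adenosyltransferase, at 0.69 and 1.22 TPM in kidney against 2667 and 2403 TPM in liver. Dao, D-amino acid oxidase, was at 239.9 and 267 TPM in kidney and listed at 0 in liver. None of the 20 sterol and fatty acid synthesis genes was called higher in kidney and 9 were called higher in liver (11 without kidney replicate 2), beside those same shares of all genes. Insig1 and Insig2, which hold sterol regulation in check, were at 41.2 and 45.2 TPM in kidney against 451 and 449.8 TPM in liver and at 33.9 and 33.1 TPM in kidney against 177 and 208 TPM in liver. Scd1, the stearoyl-CoA desaturase gene, differed widely between the 2 livers, at 1254 and 1129.7 TPM in kidney against 1423 and 3729 TPM in liver, and was not called. Of 21 genes of fatty acid oxidation and ketogenesis, 6 were called higher in liver and 1 higher in kidney, against 7.51% and 22.3% of all genes, and 14 were higher in liver after centring alone.

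Of 26 transcription factors that mark the organs, 11 were called higher in kidney and 10 higher in liver, against 22.3% and 7.51% of all genes. Pax2 (25.5 and 22.6 TPM) and Pou3f3 (79.9 and 64.1 TPM), factors of kidney development, were listed at 0 in both livers, and Pax8 was at 41.9 and 38.8 TPM in kidney against 0.00666 and 0.00569 TPM in liver. Toward liver, Foxa2 was at 0.0514 and 0.0876 TPM in kidney against 45 and 39.3 TPM in liver, Nr5a2 at 0.254 and 0.245 TPM in kidney against 28.3 and 27.5 TPM in liver and the xenobiotic sensor gene Nr1i3 at 2.77 and 2.78 TPM in kidney against 162 and 144 TPM in liver. Hnf4a, needed for the identity of hepatocytes, was at 335 and 315 TPM in kidney against 191 and 220.5 TPM in liver, and the bile acid receptor gene Nr1h4 at 86.2 and 93.8 TPM in kidney against 92 and 77 TPM in liver, with overlapping values for the latter.

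Of the Hox genes in the table, 27 of 38 passed the filter on low values. Hox genes set positional identity along the body axis. All 27 were below 1 TPM in both livers and so passed through their kidney values alone, which means that they had to differ, and their number called higher in kidney, all 27 against 22.3% of all genes, is a description of that choice. Hoxd8 was at 108 and 96.2 TPM in kidney against 0.0184 and 0.0084 TPM in liver and Hoxb6 at 51.7 and 49.4 TPM in kidney against 0.0585 and 0.114 TPM in liver, while Hoxb9 (51.4 and 62.6 TPM) and Hoxa10 (30.9 and 29 TPM) were listed at 0 in liver. The members with the smallest folds included Hoxa4, at 3.79 and 3.62 TPM in kidney against 0.368 and 0.311 TPM in liver.

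Among the 38 of 50 splicing regulators that passed the filter, Esrp1 was the only gene called under both scalings, higher in kidney, with 16 called higher in kidney and 0 in liver on the deposited scale, against 58.1% and 7.51% of all genes, and 1 and 6 after centring, against 22.3% and 18.7%. Esrp1 was at 12.6 and 12.1 TPM in kidney against 0.0545 and 0.0493 TPM in liver (log2 fold 6.36, SE 0.13, adjusted p = 8.08e-06, limma). Its relative Esrp2 was at 38.9 and 37.7 TPM in kidney against 55.3 and 53.2 TPM in liver, a log2 fold of -0.50 that did not reach the size limit as deposited and passed after centring. Both organs thus had Esrp2, while Esrp1 was near 0 TPM in liver. Genes with a called exon were called for expression under both scalings in 21.8% of 238, against 14.8% of the 6252 genes with a tested exon.

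Some markers of other cell types differed between the organs, in lists of few genes whose counts stand beside 22.3% of all genes called higher in kidney and 7.51% higher in liver. Endothelial genes gave 3 of 8 higher in kidney and 2 higher in liver, the latter being those of liver sinusoids, with Stab2 at 1.21 and 1.5 TPM in kidney against 12.4 and 15.6 TPM in liver and Clec4g at 0.042 and 0.0297 TPM in kidney against 19.1 and 24.4 TPM in liver. Emcn was at 45.1 and 42.3 TPM in kidney against 0.83 and 0.931 TPM in liver and Pecam1 at 33.9 and 33.2 TPM in kidney against 3.94 and 5.1 TPM in liver, both higher in kidney, and the list, led by Ehd3, summed to 230.2 and 241 TPM in kidney and 92.7 and 123 TPM in liver. The 11 listed symbols of leukocytes and Kupffer cells name 10 genes, 8 of which were tested and 2 called, both higher in liver, the Kupffer cell genes Clec4f (0.0345 and 0.0692 TPM in kidney against 54.2 and 82.6 TPM in liver) and Cd5l (0.102 and 0.461 TPM in kidney against 66.4 and 102 TPM in liver). That list, led by Lyz2, summed to 126 and 178 TPM in kidney and 197 and 295 TPM in liver. All 4 adipocyte genes tested, of 5 listed, were called higher in kidney, with Cfd, adipsin, at 470.4 and 894 TPM in kidney. The list summed to 541 and 978 TPM in kidney and 0.557 and 0.137 TPM in liver. Each tested member was thus below 1 TPM in both livers and passed the filter through its kidney values alone. These genes therefore had to differ, and their number called is a description of that choice. Fibroblast and stellate cell genes gave 4 and 2 of 8 (3 and 1 without kidney replicate 2), with Col1a1 at 18.2 and 26.7 TPM in kidney against 1.08 and 1.64 TPM in liver and the stellate cell gene Lrat at 2.93 and 2.1 TPM in kidney against 5.88 and 9.25 TPM in liver. That list, led by Dcn, summed to 249 and 276 TPM in kidney and 181 and 180.4 TPM in liver. Of 7 ductal genes 4 were called higher in kidney, such as Epcam at 173 and 138 TPM in kidney against 1.19 and 0.983 TPM in liver and Krt7 at 33.1 and 34.6 TPM in kidney against 0.153 and 0.233 TPM in liver, and 2 higher in liver, such as Krt18 at 56.5 and 51.6 TPM in kidney against 192 and 182 TPM in liver, and the list, led by Cdh1, summed to 579.5 and 523 TPM in kidney and 379.9 and 385 TPM in liver. Of 4 erythroid genes tested, of 7 listed, the anion exchanger gene Slc4a1, which the collecting duct also expresses, was the 1 called, at 62.1 and 51.4 TPM in kidney against 0.143 and 0.226 TPM in liver, and the list, led by Hba-a1, summed to 139 and 156 TPM in kidney and 83.1 and 59 TPM in liver. Cela1, the only 1 of 5 exocrine pancreas markers that passed the filter, was not called under both scalings. The part of these cells in the exon and gene results above was not tested.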

How the data were processed

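The authors extracted total RNA with TRIzol, made strand-specific mRNA libraries and mapped reads with HISAT2 (2.0.1, per the submitters' processing notes) to mm10 and to a SPRET/EiJ genome brought to its coordinates. Per the deposited tables, rMATS gave inclusion and skipping junction read counts, not normalized, for all reads and for allelic reads, with a form length (a whole-number score in the files) for each isoform. The 2 replicates of a tissue stand in 1 comma list and were read in list order. The authors' p-values and inclusion differences in these tables were not used. Gene expression was deposited as TPM, which the authors computed from gene counts. In the allelic tables, the first sample was taken as C57BL/6J because the maternally expressed imprinted gene Igf2r had 639 kidney reads there and 41 in the second, while the paternally expressed Plagl1 had 2 and 164.

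PSI was tested with a quasi-binomial model (dispersion of at least 1, limma squeezeVar with a depth trend) and TPM with limma on log2(TPM + 0.1), in R 4.3.3 with limma 3.58.1. Both were also run on simulated data, whose outcome is not reported here. P-values rest on the spread between 2 libraries an organ, moderated toward the typical spread of events or genes of similar depth or level. For a single exon they thus do not measure its own replicate spread alone. The Gsta2 exon had a dispersion of 29.9 and was tested at 7.02, and the Nf2 exon had 0.0452 and was tested at 2.10. Junction reads summed over all events, nested events counted repeatedly, were 94854222 and 95702534 in kidney and 129496306 and 113940153 in liver. Exons were named by the 12 widest gaps between organs in each direction among called events of 50 or more reads, 1 per gene, besides called events in listed genes. Genes were named by the 6 largest folds in each direction, the 8 largest at 10 TPM or more in all 4 libraries, and list membership. Of 362 listed symbols, 360 were found, naming 359 genes, since 2 symbols are of 1 gene. The exons, lists and tests were chosen with earlier results of these data known. Alternatives covered read minimum, variance prior, test, size limit, thinning, spread, pseudocount, filters, scaling, replicate block and each library left out. Xist was at 61.7, 55.2, 52.3 and 46.0 TPM, and Ddx3y, Kdm5d, Uty and Eif2s3y were at 0 in all 4 libraries. The fibroblast samples were not used, and some genes are not reported here.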

Additional observations from a re-analysis of the deposited data

How the results depend on the processing

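Counts of called events, 96 higher in kidney and 193 higher in liver, moved with the test, the size limit and the events and reads entered. They were 139 and 258 with events near a PSI of 0 or 1 left out. With reads thinned to the lowest library they were 102 and 218, and at a minimum of 50 reads 82 and 163. They were 2 and 2 with limma on logit PSI, where 212 and 367 events had an unadjusted p under 0.05 and a dPSI of 0.1 or more in size, 52 and 112 with a dPSI of 0.2 or more, and 0 and 0 with a replicate block. The block left the smallest adjusted p at 0.280, with 147 and 283 events at an unadjusted p under 0.05 and the size limit. Replicate numbers are not stated to mark an animal, and same-numbered libraries deviated together with a correlation of 0.101 for PSI and -0.0621 for log2 TPM, so the numbers were not taken as pairs; with the block 8872 and 1152 genes were called. Leaving out each library in turn gave 78 to 117 events higher in kidney and 160 to 205 higher in liver, and 8556 to 9058 genes and 1089 to 1145 genes. Counts of genes, 8848 higher in kidney and 1143 higher in liver, were 4416 higher in kidney at a mean of 10 TPM, where 8522 genes were tested, 3399 and 2839 after centring, 3209 and 2955 with quantile normalization, and 3384 and 2883 after centring without kidney replicate 2, a setting chosen after seeing the data. Of the genes named, Epo (log2 fold -0.40, adjusted p = 0.0441, limma) and Ass1 (0.16, adjusted p = 0.376, limma) changed direction with quantile normalization. Of 40 exons rerun, the 24 named by gap and those called in listed genes, all 40 lost their call with the replicate block. With limma on logit PSI 37 of them lost it. None changed direction in the alternatives that tested them, which was largely fixed beforehand. Most alternatives keep the same dPSI, and called events had no overlap between the organs, so leaving out 1 library cannot turn the sign. With the spread from 6 organs 25 were tested. The cause of these changes was not tested. Liver depth, at a median of 423 to 452 reads per event, limits rare isoforms, and 2 libraries an organ limit every p-value.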

Other observations

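Fibronectin, Fn1, was looked at after its values were seen. Its 270-bp extra domain exon (chr1:71603660-71603929, mm10, - strand) had a PSI of 0.311 and 0.289 in kidney and 0.00267 and 0.00205 in liver, on 1098 or more reads in each library (adjusted p = 7.16e-14, quasi-binomial test with limma), so liver transcripts lacked it almost wholly while kidney transcripts held it in part. The other extra domain exon, of 273 bp (chr1:71613763-71614035), was at 0.0155 and 0.0249 in kidney and 0.00216 and 0.00376 in liver and did not reach the size limit.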
